A study of Mus musculus with 2 samples.

Results

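Genes of fat cells, of heat production in brown fat and of fatty acid oxidation were followed in whole mouse skin. The group holds 47 genes, chosen by symbol, of 44166 genes in the deposited table, and all 47 were found there. They fall into 28 genes of white and general adipocytes, 9 genes of brown fat and thermogenesis, and 10 genes of fat oxidation in mitochondria. The skin came from C57BL/6 mice 3 days old, of the genotypes RNF31fl/fl-K14-cre and wildtype, with 1 RNA sequencing library each. In K14-cre animals the recombinase is driven from the promoter of keratin 14, a keratin of the basal epidermal layer that adipocytes do not make. Rnf31 codes for HOIP, the ligase that joins ubiquitin into linear chains. The number of animals behind each library, the body site of the skin, and whether the wildtype animals carried a floxed allele or the transgene are not stated in the labels. With 1 library a genotype there is no replicate spread and no test between genotypes, and each difference below is between 2 libraries.

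Adipocytes of the dermis and the layer under it store triglyceride in a droplet coated by perilipins, take up fatty acids freed by lipoprotein lipase, and secrete hormones such as adiponectin and leptin. Brown and beige adipocytes share much of this program and add the uncoupling protein UCP1, which lets mitochondria release energy as heat. Beta oxidation breaks fatty acids down in mitochondria of most tissues, after the carnitine palmitoyltransferases bring them in. Neonatal skin carries a dermal fat layer that grows with the first hair cycle.

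Values are FPKM, which scale fragments by transcript length and by sequencing depth, so levels can be compared between genes. The difference between the libraries, labelled KO and WT, is the log2 ratio of their FPKM after adding 1 to each, KO over WT. The pseudocount of 1 shrinks the difference of low genes. A gene was above the floor when its level was 1 FPKM or more in either library, and it was called higher or lower when the difference reached 1 in size, a 2-fold difference. Intervals on ratios are exact binomial (Clopper-Pearson) 95% intervals on estimated fragments, which cover counting error only. Depth was 20511407 reads in the library labelled KO and 19619928 in the library labelled WT. Rnf31 had 5.4 FPKM in the library labelled KO and 3.95 in the library labelled WT. The floxed part of the gene is not stated, and the skin was taken whole. The level of the whole gene therefore cannot show the deletion, and both labels are written as labels throughout.

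The white fat genes leaned towards lower levels in the library labelled KO, the oxidation genes were close to equal or somewhat higher, and the gene that defines brown fat was at or near 0 in both. Of the 47 genes 43 were above the floor, and 5 of them were called higher and 4 lower. Of all 14541 genes above the floor, 7.59% were called higher and 4.09% lower. The shares among the 43, 11.6% and 9.3%, rest on few genes. The 4 lower genes were Car3, Lep, Gpd1 and Adipoq, all of the white fat class. The 5 higher genes were Cidea, Pdk4, Cebpd, Plin2 and Plin5, which come from all 3 classes. The authors' deposited table holds a q-value for the comparison of the 2 libraries, and no member had one under 0.05 there, with the lowest at 0.155 for Pdk4. In the authors' deposited table a q-value under 0.05 was given to 96 of all 44166 genes, and 28576 were not tested, 4 members among them, so the 0 of 47 is not read as a result about the members.

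**Figure D1:**
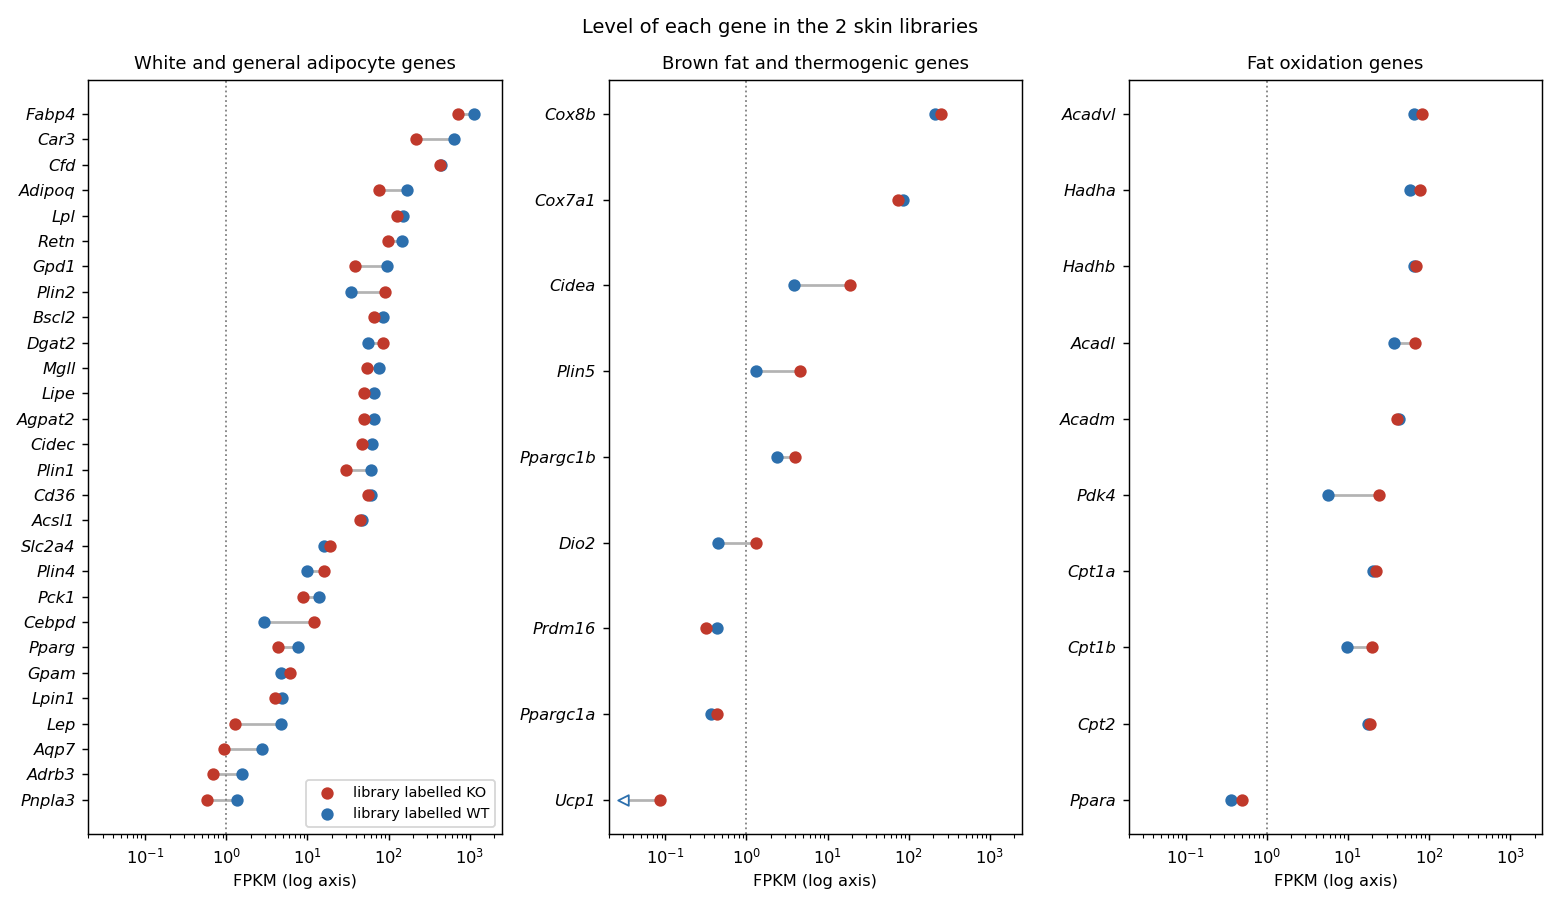
FPKM of all 47 genes on a log axis, by class, with red points for the library labelled KO and blue points for the library labelled WT. The dotted line marks the floor of 1 FPKM, and the open triangle marks Ucp1, listed at 0 in the library labelled WT. Red points lie left of blue ones for 22 of 28 white fat genes.

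Promoter sequence is shown for the 5 called genes with an entry in the RefSeq promoter table (GRCm38.p6), the lower Lep and Adipoq and the higher Plin2, Plin5 and Pdk4, since these genes are past the 2-fold rule. Each window runs 5′ to 3′ from 250 bases before to 50 after an annotated start; for Plin5 the first of its windows is given. Capitals mark a motif on either strand, AGGTCA, the half-site bound by nuclear receptors such as the PPARs, or TTGCGCAA, a palindrome bound by C/EBP factors.
Lep (chr6:29059971-29060270, plus strand): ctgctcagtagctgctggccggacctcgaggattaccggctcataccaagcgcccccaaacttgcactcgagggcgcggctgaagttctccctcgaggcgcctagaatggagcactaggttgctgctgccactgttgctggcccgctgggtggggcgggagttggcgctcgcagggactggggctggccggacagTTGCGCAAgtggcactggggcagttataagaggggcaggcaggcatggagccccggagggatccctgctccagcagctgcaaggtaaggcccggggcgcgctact
Adipoq (chr16:23146286-23146585, plus strand): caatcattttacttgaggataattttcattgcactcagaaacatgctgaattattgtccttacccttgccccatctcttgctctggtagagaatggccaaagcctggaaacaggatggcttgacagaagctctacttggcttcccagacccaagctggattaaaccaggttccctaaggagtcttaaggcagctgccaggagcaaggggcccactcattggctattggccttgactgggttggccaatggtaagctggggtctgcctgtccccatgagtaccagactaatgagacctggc
Plin2 (chr4:86670010-86670309, minus strand): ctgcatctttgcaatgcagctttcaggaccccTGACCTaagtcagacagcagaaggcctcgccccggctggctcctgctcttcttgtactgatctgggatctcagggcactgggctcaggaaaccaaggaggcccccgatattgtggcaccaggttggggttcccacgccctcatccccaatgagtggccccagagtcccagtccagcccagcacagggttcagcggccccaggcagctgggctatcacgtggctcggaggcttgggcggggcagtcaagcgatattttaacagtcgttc
Plin5 (chr17:56117499-56117798, minus strand): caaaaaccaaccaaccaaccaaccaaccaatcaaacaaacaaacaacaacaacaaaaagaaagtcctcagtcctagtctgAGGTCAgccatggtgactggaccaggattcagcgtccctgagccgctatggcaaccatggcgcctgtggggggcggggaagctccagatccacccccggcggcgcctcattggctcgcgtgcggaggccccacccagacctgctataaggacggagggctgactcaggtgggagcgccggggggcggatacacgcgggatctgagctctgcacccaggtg
Pdk4 (chr6:5496229-5496528, minus strand): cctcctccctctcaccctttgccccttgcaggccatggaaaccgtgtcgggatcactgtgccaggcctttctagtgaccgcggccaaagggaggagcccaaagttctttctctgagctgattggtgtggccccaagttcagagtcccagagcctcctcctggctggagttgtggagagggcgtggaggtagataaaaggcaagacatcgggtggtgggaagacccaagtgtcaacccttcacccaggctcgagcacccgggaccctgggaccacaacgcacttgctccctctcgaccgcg
In these windows Plin2 and Plin5 each held 1 half-site, Lep held 1 C/EBP palindrome, and Adipoq and Pdk4 held neither. Among all 32851 promoter windows 16.3% held AGGTCA and 0.183% held TTGCGCAA. Of the 47 windows of the 36 members in that table, 15 held AGGTCA (31.9%) and 1 held TTGCGCAA. The full direct repeat AGGTCANAGGTCA was in 0 of these 47 windows and in 0.0396% of all windows. Some members have several windows, which can overlap, so windows are not independent. A match is a description of these letters only.

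All 28 white fat genes were above the floor. The list's median log2 ratio was -0.43, against -0.08 for all genes, with a range of -1.56 to 1.73. A total of 22 lay below 0 and 6 above it, and 20 lay below the median of all genes and 8 above it. Of all genes above the floor, 56.6% had a log2 ratio lower than the -0.01 of Cfd. In the class 4 genes were called lower (14.3%) and 2 higher (7.14%), where the shares over all genes were 4.09% and 7.59%. These shares of the class rest on few genes. Summed over the class, the level was 2364 FPKM in the library labelled KO and 3465.7 in the library labelled WT, a ratio of 0.682. In whole skin, fewer adipocytes, less RNA per adipocyte and a larger share of RNA from other cells cannot be told apart. With 1 library a genotype, a difference between the samples taken cannot be told apart from these either.

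The secreted products of fat cells differed in size although all 4 lay below 0. Adiponectin (Adipoq), a hormone made almost only by adipocytes, had 75.7 FPKM in the library labelled KO and 169 in the library labelled WT, a ratio of 0.447 (interval 0.42 to 0.474) and a log2 ratio of -1.15. Leptin (Lep), the satiety hormone of fat, was low in both, at 1.27 FPKM in the library labelled KO and 4.72 in the library labelled WT, a ratio of 0.27 (0.203 to 0.355). These 2 hormone genes were both called lower. Resistin (Retn), a hormone of mouse adipocytes, stood at 99.1 FPKM in the library labelled KO and 148 in the library labelled WT, inside the 2-fold rule. Adipsin (Cfd), a complement protease made in quantity by fat, was nearly equal, at 436 and 438 FPKM in the libraries labelled KO and WT. Its log2 ratio of -0.01 turned to 0.09 with scaling by the median ratio. The fat hormones thus differed between the libraries by unlike factors, and Cfd was 5.76 times the level of Adipoq in the library labelled KO and 2.59 times in the library labelled WT.

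Carbonic anhydrase 3 (Car3), an abundant cytosolic protein of adipocytes and slow muscle, had the lowest log2 ratio of the 47 genes. It had 218 FPKM in the library labelled KO and 644 in the library labelled WT, a ratio of 0.338 (0.328 to 0.348). Only 0.873% of genes above the floor had a lower log2 ratio. Gpd1, the enzyme that makes the glycerol 3-phosphate backbone of triglyceride, was also called lower, at 38.6 FPKM in the library labelled KO and 94.4 in the library labelled WT (ratio 0.409, 0.386 to 0.432). An antisense gene overlaps 13% of its exon bases and had under 1 FPKM in both libraries. Whether counting used strand is not stated, so reads of such overlapping genes cannot be told apart.

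The other genes of triglyceride synthesis were inside the 2-fold rule, with ratios on both sides of 1. The acyltransferase gene Agpat2 had a ratio of 0.771 and the phosphatidate phosphatase gene Lpin1 one of 0.823. Dgat2, the enzyme of the last acylation, had 85 FPKM in the library labelled KO and 56.4 in the library labelled WT, a log2 ratio of 0.58. Gpam, which adds the first acyl chain, was at 6.06 and 4.69 FPKM in the libraries labelled KO and WT. Pck1, which feeds glycerol synthesis from smaller precursors, was at 8.76 FPKM in the library labelled KO and 14 in the library labelled WT. Of these 6 genes only Gpd1 was past the 2-fold rule, and 4 lay below 0.

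Uptake and activation genes were inside the 2-fold rule without exception. The fatty acid binding protein gene Fabp4 was the most abundant of the 47, with 723 FPKM in the library labelled KO and 1135 in the library labelled WT (ratio 0.637, 0.621 to 0.653). It ranked 163rd of all genes in the library labelled KO and 82nd in the library labelled WT. Lipoprotein lipase (Lpl) was at 128 and 150 FPKM in the libraries labelled KO and WT. The fatty acid transporter gene Cd36 had a ratio of 0.929, and the acyl-CoA synthetase gene Acsl1 one of 0.944. The log2 ratio of Acsl1, -0.08, turned to 0.01 with scaling by the median ratio. The insulin-responsive glucose transporter gene Slc2a4, used by fat and muscle, was at 19.1 FPKM in the library labelled KO and 16 in the library labelled WT.

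The lipolysis genes all lay below 0 and inside the rule. Hormone-sensitive lipase (Lipe) had a ratio of 0.741 and monoglyceride lipase (Mgll) one of 0.722. An antisense gene, at 1.42 and 1.51 FPKM in the libraries labelled KO and WT, covers 15.6% of the exon bases of Lipe. The remaining 3 genes of this group were near the floor. The glycerol channel gene Aqp7 had 0.948 FPKM in the library labelled KO and 2.79 in the library labelled WT. The beta 3 adrenergic receptor gene Adrb3, with an antisense gene over 24.9% of its exon bases, had 0.696 FPKM in the library labelled KO and 1.56 in the library labelled WT. Adiponutrin (Pnpla3), a lipase-like droplet protein, had 0.571 FPKM in the library labelled KO and 1.36 in the library labelled WT. Their FPKM ratios were 0.339, 0.446 and 0.42, and with the pseudocount of 1 none of the 3 reached the rule. All 3 were called lower with a pseudocount of 0.1, and Aqp7 also when the 50 most abundant genes were left out of the scaling, at -1.04. Estimated fragments for these 3 ran from 12 to 39 in the library labelled KO and from 27 to 109 in the library labelled WT.

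Of the transcription factors of adipocyte formation, the pair listed here differed in opposite directions. Pparg, the master regulator of fat cells, was at 4.37 FPKM in the library labelled KO and 7.65 in the library labelled WT, a log2 ratio of -0.69. Cebpd, an early factor of adipocyte formation that is also induced in many cells during inflammation, had 12 FPKM in the library labelled KO and 2.9 in the library labelled WT (ratio 4.12, 3.47 to 4.89). Cebpd was called higher, and 97.2% of genes above the floor had a lower log2 ratio. The antisense-strand gene Spidr, at 0.962 and 1.44 FPKM in the libraries labelled KO and WT, covers 15% of its exon bases.

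**Figure D2:**
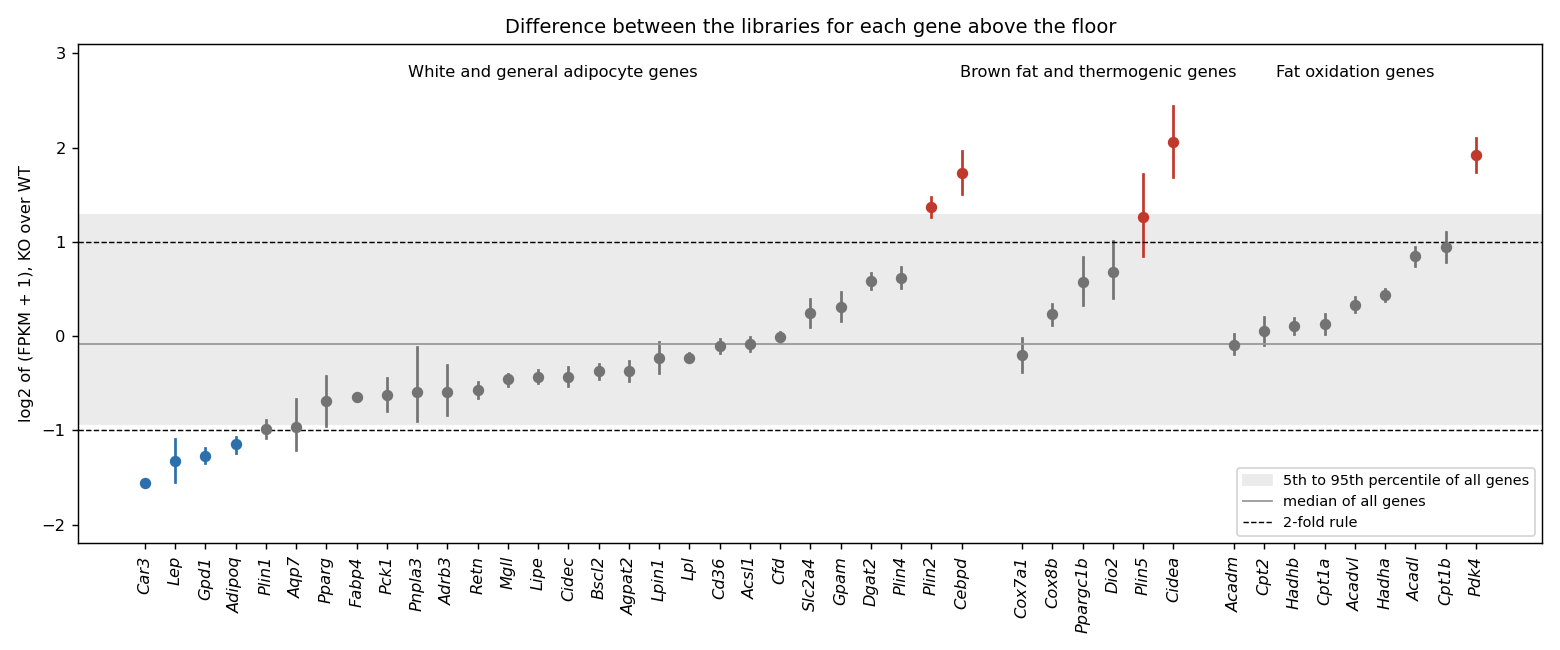
Log2 ratio of (FPKM + 1), KO over WT, for the 43 genes above the floor, by class. Vertical bars are 95% counting intervals, dashed lines the 2-fold rule, the grey line the median of all genes and the grey band their 5th to 95th percentile, -0.93 to 1.29. Car3, Lep, Gpd1 and Adipoq lie under the lower dashed line, and Cebpd, Plin2, Plin5, Cidea and Pdk4 above the upper one.

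Droplet proteins differed in both directions. Perilipin 1 (Plin1), the coat of the large droplet of mature adipocytes, had 30 FPKM in the library labelled KO and 60.5 in the library labelled WT, a ratio of 0.496 (0.465 to 0.53) and a log2 ratio of -0.99, just inside the rule. It was called lower with a pseudocount of 0.1, at -1.01, and without the 50 most abundant genes in the scaling, at -1.11. Perilipin 2 (Plin2), which coats small droplets in most cell types, had 89.6 FPKM in the library labelled KO and 34.1 in the library labelled WT, a ratio of 2.62 (2.44 to 2.82). The main perilipin transcript was thus Plin2 in the library labelled KO, with 53.7% of the summed perilipin FPKM, and Plin1 in the library labelled WT, with 42%. Perilipin 5 (Plin5), which ties droplets to mitochondria in oxidative tissues, was called higher at 4.52 FPKM in the library labelled KO and 1.31 in the library labelled WT (ratio 3.45, 2.42 to 5.04). Its neighbour Plin4, 1797 bases away on chromosome 17 and on the same strand, had a ratio of 1.59 and was inside the rule. The ratio of Plin3, a widely expressed perilipin outside the 47 genes, was 0.706. Seipin (Bscl2), which shapes new droplets, had a ratio of 0.769.

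Droplet fusion proteins of the CIDE family differed in the same unlike way. Cidea, which enlarges droplets in brown fat and is also made by mouse sebaceous glands, had the highest log2 ratio of the 47 genes, 2.06. It had 19.1 FPKM in the library labelled KO and 3.82 in the library labelled WT (ratio 5.01, 3.81 to 6.58). Cidec, its relative in white adipocytes, was at 46.6 FPKM in the library labelled KO and 63.1 in the library labelled WT. Cidea held 29.1% of the summed CIDE FPKM in the library labelled KO and 5.69% in the library labelled WT, while Cideb was under 1 FPKM in both.

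The sebaceous gland, macrophage and keratinocyte marker lists each held more genes called higher than lower. All genes above the floor also leaned this way, with 7.59% called higher and 4.09% lower, and shares of these short lists rest on few genes. Of 14 sebaceous gland markers other than Plin2 and Cidea, 6 were called higher (42.9%) and 0 lower, while 10 lay above 0 and 4 below it. Their summed level was 766 FPKM in the library labelled KO and 477 in the library labelled WT. The wax synthase genes of sebocytes, Awat1 and Awat2, had 15 and 3.08 FPKM in the library labelled KO and 2.1 and 0.741 in the library labelled WT, whereas the sebocyte receptor gene Mc5r had 3.12 and 3.44 FPKM in the libraries labelled KO and WT. Of 14 macrophage markers 11 were called higher (78.6%) and 0 lower. Their sum was 671 FPKM in the library labelled KO and 274 in the library labelled WT. Log2 ratios of the macrophage markers ran from 0.43 to 1.86. The 12 keratinocyte markers summed to 3.45% of all FPKM in the library labelled KO and 0.735% in the library labelled WT. Of the 12, 7 were called higher (58.3%) and 2 lower (16.7%). Krt14 alone had 12590 FPKM in the library labelled KO and 816 in the library labelled WT. The 2 lower genes were Krt15 and Krt10, with ratios of 0.431 and 0.278. The median level of these markers was 260 FPKM in the library labelled KO and 283 in the library labelled WT. The part of these cell types in the values of Plin2 and Cidea was not tested.

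In the class named for brown fat 6 of 9 genes were above the floor, with a median log2 ratio of 0.63, and 5 lay above 0. Of the 6, Cidea and Plin5 were called higher (33.3%) and 0 lower, where the shares over all genes were 7.59% and 4.09%. These shares of the class rest on few genes. Its defining gene was at or near 0 in both libraries. Ucp1, the uncoupling protein of brown and beige adipocytes, had 0.0864 FPKM in the library labelled KO, about 2 fragments, and the library labelled WT lists it at 0. Both libraries were under the level of 3 fragments, 0.119 FPKM in the library labelled WT, so no ratio is given. Prdm16, a brown fat transcription regulator, had 0.315 and 0.439 FPKM in the libraries labelled KO and WT. Ppargc1a, the coactivator that raises mitochondrial genes, had 0.429 FPKM in the library labelled KO and 0.363 in the library labelled WT, so that 3 of the 9 genes stayed under the floor. The related coactivator gene Ppargc1b, used in most tissues, was at 4.01 FPKM in the library labelled KO and 2.37 in the library labelled WT. Dio2, the deiodinase that activates thyroid hormone in brown fat and other tissues, had 1.31 FPKM in the library labelled KO and 0.444 in the library labelled WT. Its ratio of 2.95 (2.04 to 4.31) was inside the rule through the pseudocount, at a log2 ratio of 0.68. With its defining marker at or near 0 in both libraries, "brown fat" names this list of genes and not a tissue found in the samples.

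The 2 respiratory chain genes of this class were abundant. Cox8b and Cox7a1 encode forms of 2 cytochrome c oxidase subunits found in heart, skeletal muscle and brown fat. Cox8b had 247 FPKM in the library labelled KO and 211 in the library labelled WT (ratio 1.17, 1.08 to 1.27). Cox7a1 had 74.5 FPKM in the library labelled KO and 85.9 in the library labelled WT (ratio 0.868, 0.765 to 0.986). Both were inside the 2-fold rule. The step behind the estimated fragments came from transcripts of at least 3000 bases. Cox8b has 360 bases and Cox7a1 393, so their fragments are less certain and their intervals may be too narrow. Their widely expressed relatives were higher in level, with Cox8a at 867 and 1100 FPKM in the libraries labelled KO and WT and Cox7a2 at 293 FPKM in the library labelled KO and 323 in the library labelled WT. Among the uncoupling proteins Ucp2, which immune and epithelial cells express, held 98.6% of the family's FPKM in the library labelled KO and 99.6% in the library labelled WT. The muscle form Ucp3 had 5.28 FPKM in the library labelled KO and 2.17 in the library labelled WT, a log2 ratio of 0.99.

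**Figure D3:**
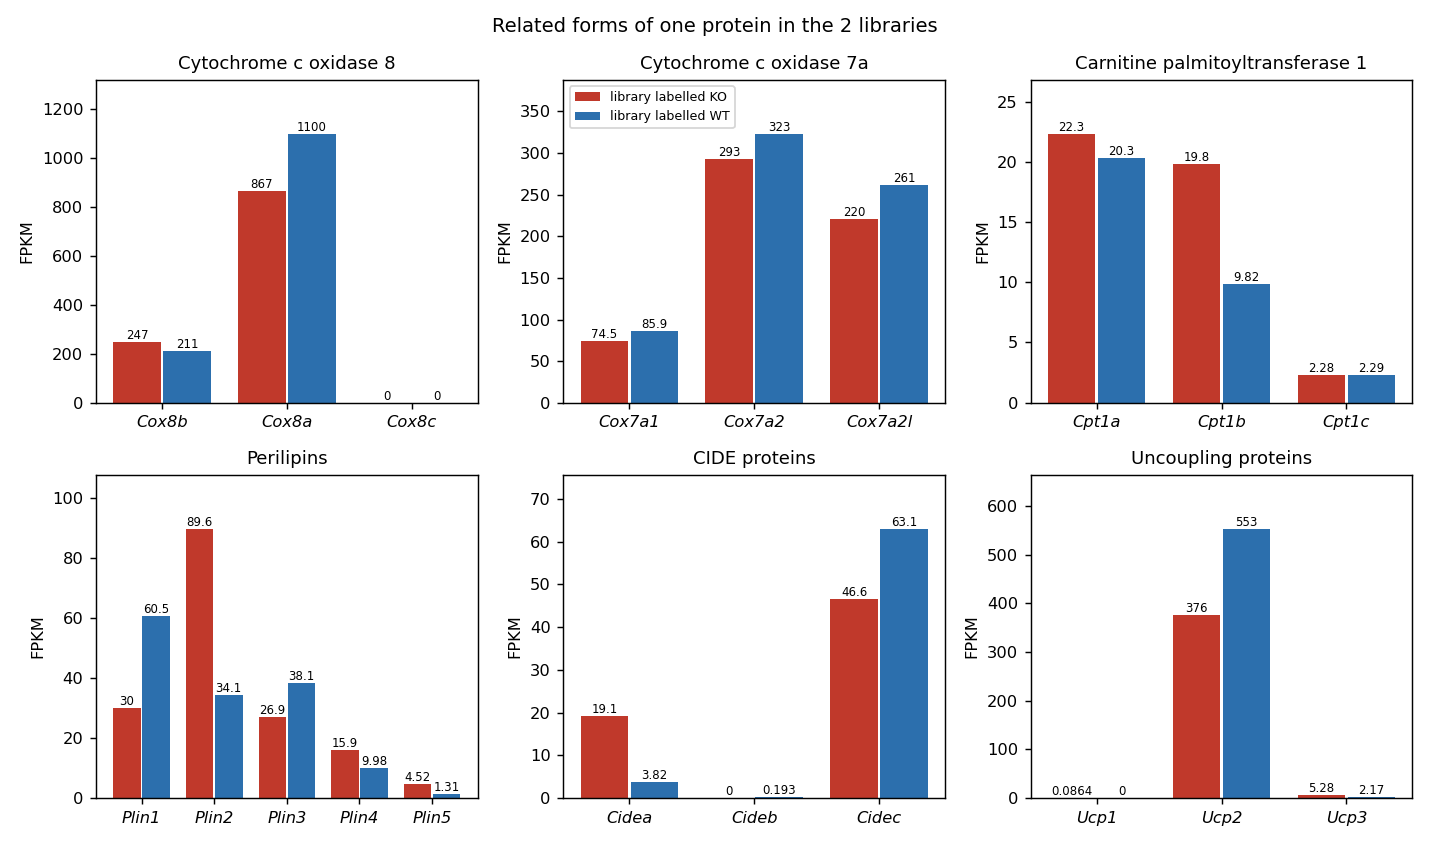
FPKM of related forms of 6 protein families, with the library labelled KO in red and the library labelled WT in blue; bars start at 0 and numbers are FPKM. Plin2 is the tallest perilipin bar in red and Plin1 in blue, and Ucp1 has no visible bar in either.

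Skeletal muscle, present under the skin, gave a large signal in both libraries. Its 20 markers summed to 13077 FPKM in the library labelled KO and 11505 in the library labelled WT, a ratio of 1.14. Of the 20, 6 were called higher (30%) and 3 lower (15%), where the shares over all genes were 7.59% and 4.09%. Skeletal actin (Acta1) had 4317 FPKM in the library labelled KO and 3484 in the library labelled WT, and muscle creatine kinase (Ckm) had 821 and 728 FPKM in the libraries labelled KO and WT. Myoglobin (Mb), the oxygen store of oxidative fibres, was called higher, at 33.6 FPKM in the library labelled KO and 9.26 in the library labelled WT. Myh1, Myh2, Myh3, Ryr1 and Ttn were also called higher. The lower markers were Pvalb, Actn3 and Myh4. Their FPKM was 4.91, 23.8 and 1.75 in the library labelled KO and 13.2, 49.1 and 4.71 in the library labelled WT. The part of muscle in the values of Cox8b, Cox7a1, Cpt1b, Slc2a4, Pdk4 and Car3, all of which muscle expresses, was not tested.

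Fat oxidation genes were nearly all above 0 and inside the rule. Of 10 genes 9 were above the floor, with a median log2 ratio of 0.33 and a range of -0.09 to 1.92, and 8 lay above 0. That count fell to 5 when the 50 most abundant genes were dropped from the scaling, a setting that moved the median of all genes by -0.11, and 8 of the 9 were above the median of all genes under either scale. Summed over the class, the level was 424 FPKM in the library labelled KO and 322 in the library labelled WT.

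The entry step was led in level by Cpt1a, the widely expressed carnitine palmitoyltransferase, at 22.3 FPKM in the library labelled KO and 20.3 in the library labelled WT. Its log2 ratio was 0.13 and became 0 without the 50 most abundant genes. Cpt1b, the form of muscle and brown fat, had 19.8 FPKM in the library labelled KO and 9.82 in the library labelled WT, a ratio of 2.02 (1.8 to 2.27) and a log2 ratio of 0.95. It was called higher with scaling by the median ratio, at 1.04. Cpt1b held 44.6% of the summed Cpt1 FPKM in the library labelled KO and 30.3% in the library labelled WT. In GENCODE a readthrough gene on the same strand, not analysed here, covers 81.4% of the exon bases of Cpt1b. Cpt2, the partner enzyme inside the mitochondrion, was nearly equal at 18.6 and 17.9 FPKM in the libraries labelled KO and WT, and its log2 ratio of 0.05 turned to -0.07 without the 50 most abundant genes.

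The enzymes of the beta oxidation cycle differed little. Acadl, the long-chain acyl-CoA dehydrogenase, stood out at 67.5 FPKM in the library labelled KO and 37.1 in the library labelled WT (ratio 1.82, 1.69 to 1.96). The very long-chain enzyme gene Acadvl had 82.7 and 65.4 FPKM in the libraries labelled KO and WT; the opposite-strand gene Dvl2 covers 42.9% of its exon bases. The medium-chain enzyme gene Acadm was at 40.7 FPKM in the library labelled KO and 43.3 in the library labelled WT, and its log2 ratio of -0.09 turned to 0.01 with scaling by the median ratio. Hadha and Hadhb encode the 2 subunits of the trifunctional protein and are read in opposite directions on chromosome 5, with 85 bases between them. Hadha had a ratio of 1.36 (1.3 to 1.42) and Hadhb one of 1.08 (1.02 to 1.15), and the log2 ratio of Hadhb, 0.11, turned to -0.02 without the 50 most abundant genes.

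Of the 2 regulators of oxidation 1 was past the rule. Pdk4, a kinase that turns cells from glucose towards fatty acid use and a textbook target of PPAR receptors, had 24.1 FPKM in the library labelled KO and 5.65 in the library labelled WT (ratio 4.27, 3.77 to 4.86). It was the only oxidation gene called higher, 1 of 9 (11.1%), where 7.59% of all genes were. Its log2 ratio was above that of 97.8% of genes above the floor. Ppara, the PPAR receptor of liver and other oxidative tissues, stayed under the floor at 0.503 FPKM in the library labelled KO and 0.367 in the library labelled WT.

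Further genes of these pathways, outside the 47, had list medians between -0.18 and -0.05, where the median of all genes was -0.08. Of 35 other adipocyte genes above the floor 3 were called higher (8.57%) and 4 lower (11.4%), with a median of -0.05. The shares over all genes were 7.59% and 4.09%, and those of this list rest on few genes. In this list 14 genes lay above 0 and 21 below it. Its median was thus near that of all genes, where the 28 white fat genes had -0.43, and that difference was not tested. Angptl4, a secreted inhibitor of lipoprotein lipase, was higher, at 55.4 FPKM in the library labelled KO and 23.7 in the library labelled WT. The acute-phase protein gene Hp, which fat also makes, had 491 and 102 FPKM in the libraries labelled KO and WT. Fabp5, a fatty acid binding protein abundant in epidermis, had 3111 FPKM in the library labelled KO and 668 in the library labelled WT. All 3 are made by cell types other than adipocytes as well. Among the lower genes, the lipogenic regulator gene Thrsp had 2.64 FPKM in the library labelled KO and 13 in the library labelled WT. The retinol carrier gene Rbp4 had 6.35 and 25.4 FPKM in the libraries labelled KO and WT, and the synuclein gene Sncg had 15.9 FPKM in the library labelled KO and 33.6 in the library labelled WT. The acyltransferase gene Mogat1 is listed at 0 for KO and at 1.13 FPKM for WT, so it has no ratio. The abundant Cebpb and Apoc1 had ratios of 1.45 and 0.972.

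Of 24 other brown and beige fat genes above the floor 2 were called higher (8.33%) and 1 lower (4.17%). These shares are near those over all genes, 7.59% and 4.09%, so the counts are not read as a result about the list. The glycerol kinase gene Gk was higher, at 4.93 FPKM in the library labelled KO and 1.26 in the library labelled WT. The early response gene Nr4a1 was higher, at 11.8 FPKM in the library labelled KO and 4.96 in the library labelled WT. The lower gene, Cited1, had 0.074 FPKM in the library labelled KO, about 1 fragment, and 2.63 in the library labelled WT. The list's median was -0.07, and 12 of the 36 genes on that list were under the floor. Of 41 other fatty acid oxidation and ketone genes 39 were inside the rule. Acaa1b was lower, at 0.983 FPKM in the library labelled KO and 4.31 in the library labelled WT, and is close in sequence to Acaa1a, so that its share of reads is uncertain. Genes inside the rule included the abundant Etfb (ratio 0.757), Acaa2 (0.826), Eci2 (0.865) and Etfa (0.921). Of the 41 genes 31 lay below 0, with a median of -0.18. The median was thus above 0 for the oxidation genes among the 47 and below 0 for these further ones, and that difference was not tested.

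**Figure D4:**
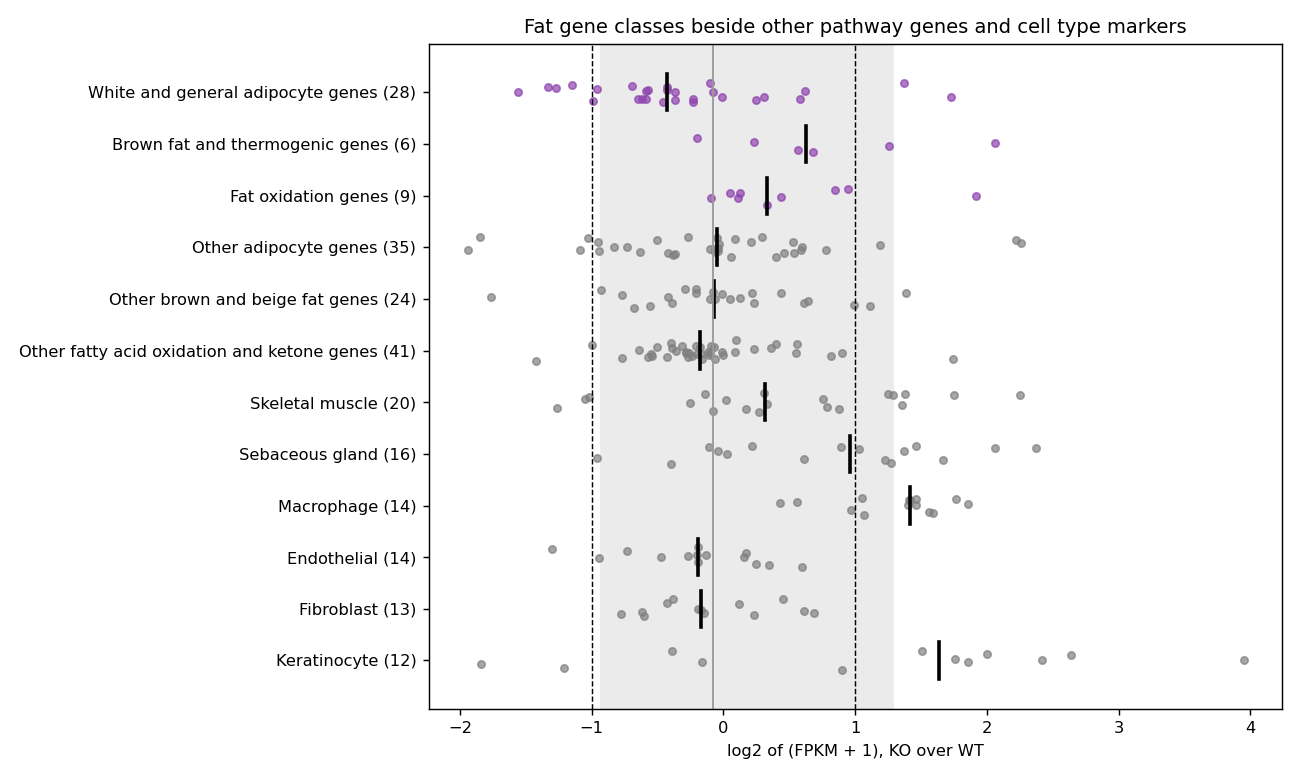
Log2 ratio of (FPKM + 1), KO over WT, for each gene above the floor in the 3 fat classes (purple) and in other pathway and cell type lists (grey), with the number of genes in brackets. Black bars are list medians, dashed lines the 2-fold rule and the grey band the 5th to 95th percentile of all genes; the white fat class has the lowest median, -0.43, and the keratinocyte markers the highest, 1.64.

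Blood vessel and stromal markers, which lie in the same dermal layers as fat, were near the median of all genes. Of 14 endothelial markers 1 was called lower (7.14%, where 4.09% of all genes were) and 0 higher, with a median of -0.19. The lower gene was Cldn5, at 39.7 FPKM in the library labelled KO and 98.9 in the library labelled WT. None of 13 fibroblast markers was past the rule, and their median was -0.17. The ratio of summed FPKM, KO over WT, was 0.769 for the endothelial and 0.833 for the fibroblast markers, beside 0.682 for the white fat class. The white fat sum leans on a few abundant genes. Fabp4 had 723 and 1135 FPKM and Car3 218 and 644 in the libraries labelled KO and WT. For the 36 other adipocyte genes the ratio was 2.2, with Fabp5 giving 3111 of 5218 FPKM in the library labelled KO. Differences between these ratios were not tested.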

How the data were processed

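RNA of whole skin from 3-day-old mice was sequenced in 2 libraries, labelled KO and WT, with TRIzol extraction and a directional library kit, per the labels' protocols. The submitters' processing notes name cutadapt 1.9.1, HISAT2 2.0.4, Cufflinks 2.2.1 and the build GRCm38. The authors deposited 1 FPKM per gene and library, with the q-value of their own comparison, per the file headers. A deposited sheet gives the count of reads per library and the fraction aligned, 93.59% for KO and 92.56% for WT. The sources used here do not give strand use in counting, the handling of shared reads or the annotation release.

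Measure, floor and 2-fold rule are those stated with the results. Members, classes and lists were chosen with earlier results of these data known. All members are named, with other pathway genes past the rule or among the 4 most abundant of their list. Members and list genes were matched by symbol, or by gene identifier where the table uses an older symbol. Positions, principal transcripts and overlaps come from GENCODE mouse release 21 (GRCm38). Low FPKM of single-transcript genes of at least 3000 bases lay within 0.25 of a whole step for 78.5% of 349 values in KO and 84.4% of 347 in WT, against 50% by chance. That step gave the estimated fragments, about 32.3 in KO and 30.8 in WT at 1 FPKM over 2 kb. Scripts ran in Python 3.11.15 with scipy 1.17.1 and were tested on simulated data. The 7 alternatives varied pseudocount, floor, scaling and fold. Some members are not in the promoter table, and their promoters were not used here. A result on 1 listed gene is not reported here.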

Additional observations from a re-analysis of the deposited data

How the results depend on the processing

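With 1 library a genotype, no setting stands in for replicates. No paired analysis was possible because each group has 1 sample. All 5 higher and all 4 lower genes kept their calls under a pseudocount of 0.1, no floor, both scalings and a 1.5-fold rule, while a pseudocount of 5 and a floor of 5 FPKM each dropped Plin5 and Lep. With a pseudocount of 0.1, 8 genes were lower, all of the white fat class, and 2 oxidation genes were higher, when 10.2% of all genes were called higher and 7.46% lower. Under a 1.5-fold rule 9 genes were higher, 3 of them oxidation genes, and 11 lower, all of the white fat class, when 14.3% of all genes were called higher and 13.8% lower. Brown fat genes called higher numbered 1 of 6 with a pseudocount of 5 and 1 of 3 with a floor of 5. The shares over all genes were 3.63% and 7.66%, and counts this small are not read as a result about the class. The brown fat median of 0.63 was 1.06 with a pseudocount of 0.1, 0.26 with 5, 0.23 without a floor and 0.23 with a floor of 5. Leaving the 50 most abundant genes out of the scaling moved the median of all genes by -0.11 and gave class medians of -0.21 (all 43), -0.55 (white) and 0.2 (oxidation). It added Aqp7 and Plin1 to the lower genes, making 6, when 6.54% of all genes were called higher and 5.47% lower. Scaling by the median ratio gave -0.33 (white) and 0.43 (oxidation), with 2 oxidation genes higher, when 8.61% of all genes were called higher. The oxidation median was 0.23 without a floor. No member past the 2-fold rule changed direction in any of these settings. Genes near 1 FPKM rest on few fragments, 27 for Pnpla3 in the library labelled WT.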
